A study of Mus musculus with 96 samples.

Results

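Cytosolic ribosomal protein genes were followed through the promoter peaks that carry their names in 2 tables of accessible chromatin, 1 from hepatocyte nuclei and 1 from macrophage nuclei of mouse liver. A peak was taken when its gene name had the form Rpl or Rps followed by a digit, or Rplp0, Rplp1 or Rplp2, and its distance from the transcription start site (TSS) was at most 1000 bp. Names of pseudogenes and the S6 kinase genes were left out. This gave 94 peaks of 71 genes among 46832 peaks in hepatocyte nuclei, and 99 peaks of 72 genes among 30170 peaks in macrophage nuclei. All of them passed the filter on low values. The remaining promoter peaks within 1000 bp, 16257 in hepatocyte and 14039 in macrophage nuclei, are called other promoter peaks here.

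The data are ATAC-seq profiles, in which a transposase cuts open chromatin, from nuclei captured by the INTACT method (isolation of nuclei tagged in a chosen cell type). Nuclei came from female HEP-INTACT mice (hepatocytes) or female MAC-INTACT mice (macrophages). Food was withdrawn at ZT12, the onset of the active phase, and livers of fasted mice were taken 3, 8, 16 or 24 h later, at ZT15, ZT20, ZT4 and ZT12. Each fasted group has its own fed group of the same time, with food ad libitum. The 16 groups held 4 mice each, and all mice carried the nuclear tag of their line. The promoter that drives the tag, the strain background and the age of the mice are not given in the sources used here. A change of signal in a bulk library can come from more nuclei with an open site or from a site that is more open in each nucleus, and these cannot be told apart.

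Ribosomal proteins and ribosomal RNA form the small subunit, which reads the mRNA, and the large subunit, which joins amino acids. Their genes are active in nearly all cells and most start transcription within a short run of pyrimidines, the TOP motif, through which the mTORC1 kinase controls translation of the mRNA according to nutrients. In liver, fasting lowers insulin and amino acid signals to mTORC1 and is known for lowering ribosome content, while ATAC-seq reports only how open the promoter is.

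Promoter sequences were read for 52 of the 72 genes from the RefSeq table of build GRCm38.p6, the same assembly as the mm10 of the files. The 9 shown belong to genes described peak by peak below: Rplp2, Rpl27, Rpl13a, Rps21, Rps19, Rpl37 and Rpl10a for large or well supported differences, Rpl38 as opened in both tables and Rpl12 as closed at 3 h. Each line gives 70 bases before and 10 bases from the RefSeq start, 5′ to 3′ on the coding strand, and capitals mark matches to the motifs named in the next paragraph, of which Rpl27 and Rpl10a hold none in this window.
Rps19, chr7:24884522-24884601, plus strand: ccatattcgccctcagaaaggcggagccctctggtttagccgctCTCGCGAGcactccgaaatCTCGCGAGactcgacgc
Rps21, chr2:180257309-180257388, plus strand: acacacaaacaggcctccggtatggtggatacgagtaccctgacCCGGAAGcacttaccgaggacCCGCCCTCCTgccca
Rplp2, chr7:141447581-141447660, plus strand: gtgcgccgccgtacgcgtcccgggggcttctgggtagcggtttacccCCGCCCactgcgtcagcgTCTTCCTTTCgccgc
Rpl27, chr11:101442175-101442254, plus strand: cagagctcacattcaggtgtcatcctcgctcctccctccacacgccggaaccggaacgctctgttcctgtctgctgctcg
Rpl13a, chr7:45128736-45128815, minus strand: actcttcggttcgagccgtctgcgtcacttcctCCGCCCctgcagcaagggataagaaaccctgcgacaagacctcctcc
Rpl38, chr11:114668510-114668589, plus strand: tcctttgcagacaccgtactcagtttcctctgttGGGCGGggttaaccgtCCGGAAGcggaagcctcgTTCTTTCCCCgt
Rpl12, chr2:32961642-32961721, plus strand: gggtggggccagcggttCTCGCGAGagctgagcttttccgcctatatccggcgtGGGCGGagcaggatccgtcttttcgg
Rpl37, chr15:5116543-5116622, plus strand: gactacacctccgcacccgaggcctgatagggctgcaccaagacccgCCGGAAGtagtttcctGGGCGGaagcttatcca
Rpl10a, chr17:28328401-28328480, plus strand: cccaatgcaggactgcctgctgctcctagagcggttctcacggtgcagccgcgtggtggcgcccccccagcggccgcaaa

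Motifs were searched on both strands from 250 bases before to 50 after the start, and matches to different motifs were counted each on its own, also where they overlap. The palindromic core TCGCGAG was found in 11 of the 52 ribosomal protein promoters (21.2%), against 4.16% of 9017 promoters of other genes with a promoter peak and 1.93% of all 32851 promoters in the table. Rps19 has a pair of these cores within the printed window, and Rpl12 has 1. The ETS family core CCGGAAG was found in 18 of the 52 (34.6%), against 18.4% of the other genes with a promoter peak and 8.86% of all promoters. A start inside a run of at least 5 pyrimidines, the TOP-like arrangement seen here in Rps21, Rplp2 and Rpl38, was found in 14 of the 52 (26.9%), against 8.95% and 10.1%. The run had to hold the annotated start base, which was C in 16 of the 52 and T in 8. Runs that begin just after that base, as printed for Rpl12 and Rpl13a, were not counted. The share therefore depends on the exact annotation and is no count of genes without a TOP motif. GGGCGG, the SP family core, was about as frequent in ribosomal protein promoters (67.3%) as in those of other genes with a promoter peak (65.1%), and 35.7% of all promoters hold it. Among the 11 genes with TCGCGAG, 8 had a peak that opened in hepatocyte nuclei at 24 h, and so did 28 of 40 without it. For CCGGAAG the counts were 15 of 18 with the core and 21 of 33 without it. Of 54 promoters of mitochondrial ribosomal protein genes, 17 held the ETS family core (31.5%), close to the 34.6% given above. The higher share of this core was therefore not confined to the cytosolic genes. The palindromic core was in 2 of these 54 (3.70%), the pyrimidine run over the start in 3 (5.56%) and the SP family core in 24 (44.4%). For the 52 genes the RefSeq start nearest the TSS of the peak was read, and for the other and mitochondrial genes the first start listed. The promoters of those genes need not be the ones at their peaks. These counts describe letters in a window, and no difference between them was tested.

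The peaks are 200 bp wide and sat close to the start: 71 of 94 in hepatocyte nuclei and 73 of 99 in macrophage nuclei lay within 150 bp of the TSS (75.5% and 73.7%), against 60.8% and 65.1% of other promoter peaks. Their median level was 83.8 normalized reads in hepatocyte nuclei, against 75.2 for other promoter peaks, and 111 in macrophage nuclei, against 100 for other promoter peaks. Rps29, a small-subunit protein that binds zinc, had the highest mean level in both tables, 241 normalized reads in hepatocyte and 375 in macrophage nuclei. The lowest were the Rpl10a peak at -257 bp in hepatocyte nuclei (22.8) and the Rpl21 peak at 471 bp in macrophage nuclei (25.7). In hepatocyte nuclei 50 genes had 1 peak, 19 had 2 and 2 had 3. A pair of peaks overlaps in each of Rpl13a, Rpl26, Rpl27, Rpl37, Rps15a and Rps21 and can share fragments, so they are not separate measurements. The names include 4 hepatocyte members that are not standard ribosomal proteins: Rpl22l1 and Rpl7l1 (paralogues), Rps27l (a paralogue induced by p53) and Rps19bp1 (a binding partner of Rps19). Macrophage nuclei add Rpl36al.

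Reads in peaks ranged from 2458156 to 6098645 per mouse in hepatocyte and from 1729720 to 4637873 in macrophage nuclei. Of these, 6579 to 15865 and 9633 to 22782 lay in the ribosomal protein peaks. Of the fixed marker lists, 14 of 14 hepatocyte markers and 3 of 14 macrophage markers had a peak in the hepatocyte table, and 14 of 14 macrophage markers and 2 of 14 hepatocyte markers had one in the macrophage table.

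In hepatocyte nuclei the summed signal over the 94 peaks did not separate fasted from fed mice at 3 h and stood higher in every fasted mouse at 8, 16 and 24 h. At 3 h it was 8853, 7753, 7969 and 7728 normalized reads in fasted mice, against 8523, 8814, 7792 and 8349 in fed mice. At 8 h it ranged from 9117 to 10314 in fasted mice, against 8434 to 9072 in fed mice. At 16 h the fasted mice had 10525 to 11970, against 8953 to 10160 in fed mice, and 1 fed mouse (replicate 3) held the 10160 while the other three were at or below 9129. At 24 h the fasted mice had 9436 to 10425, against 7422 to 8375 in fed mice. The ranges overlap at 3 h and do not overlap at the other times. Other promoters moved with them: promoter peaks took 46.8% to 49.4% of all signal in fasted mice at 24 h, against 43.4% to 45.4% in fed mice. Within the promoter signal, the ribosomal protein peaks took 0.590% to 0.604% in fasted mice at 24 h, against 0.557% to 0.579% in fed mice, which does not overlap either. At 16 h this share was 0.597% to 0.669% in fasted mice, against 0.583% to 0.600% in fed mice, which overlaps.

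**Figure D1:**
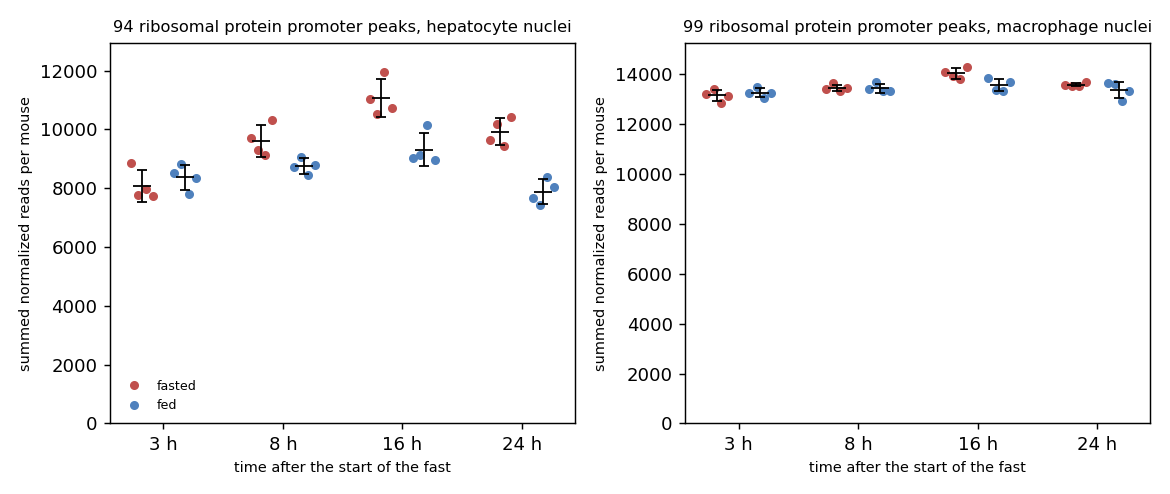
Summed normalized reads over the ribosomal protein promoter peaks per mouse (y axis, from 0) at each time after the start of the fast (x axis), for hepatocyte nuclei (94 peaks, left) and macrophage nuclei (99 peaks, right). Points are mice, fasted left of fed, and bars show the mean and SD of 4 mice; in hepatocyte nuclei the fasted mice lie above the fed mice at 8, 16 and 24 h (9436 to 10425 against 7422 to 8375 at 24 h).

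Each peak was tested with limma on log2 of the normalized value plus 2, with Benjamini-Hochberg adjustment over all peaks of the table. A peak is called opened when it was higher in fasted mice at an adjusted p under 0.05, and closed when it was lower. Log2 fold changes are fasted over fed on this scale and understate the change of low peaks.

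After 3 h of fasting hepatocyte nuclei had 0 opened and 1 closed ribosomal protein peak of 94, while 8.85% of other promoter peaks opened and 4.20% closed. At an unadjusted p under 0.05 there were 5, and edgeR and DESeq2 each gave 0 opened and 1 closed. The median log2 fold change was -0.06, against 0.01 for other promoter peaks, and 37 of 94 (39.4%) were above 0, against 51.2%. The closed peak was that of Rpl12 at -58 bp (chr2:32961554-32961754, mm10, as are all peak coordinates here); its protein sits at the base of the stalk to which elongation factors bind. It had 56.2, 45.0, 44.7 and 36.3 normalized reads in fasted mice, against 71.9, 62.0, 56.2 and 64.6 in fed mice. The highest fasted mouse touches the lowest fed mouse, and the other fasted mice lie below all fed mice. The log2 fold change was -0.48 ± 0.15 (SE, adjusted p = 0.0176 in limma). The call was lost without fasted replicate 4 (-0.38) or without fed replicate 1 (-0.42), and without fasted replicate 1 the count of closed peaks was 2. Signal at the few marker peaks of other cell types also separated the groups at 3 h, with 0.02997% to 0.0358% of all signal in fasted mice, against 0.0236% to 0.0290% in fed mice, for macrophage markers (3 of 14 with a peak). For stellate cell markers (2 of 9) it was 0.00264% to 0.00331% in fasted mice, against 0.00140% to 0.00190% in fed mice, and for endothelial markers (4 of 9) 0.00931% to 0.0104%, against 0.00840% to 0.00910%; the part of these in the result was not tested.

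After 8 h, 12 of 94 peaks opened and 0 closed (24 at an unadjusted p under 0.05 in either direction), against 19.1% opened and 4.26% closed among other promoter peaks. The share of 12.8% is below the background. Endothelial markers (4 of 9 with a peak) took 0.00629% to 0.00842% of all signal in fasted mice at 8 h, against 0.00872% to 0.00936% in fed mice, and lymphocyte markers (1 of 9) 0.0145% to 0.0157%, against 0.0121% to 0.0138%; their part in the counts was not tested. The median log2 fold change was 0.14, against 0.12 for other promoter peaks. The opened peaks were 7 of 32 of the small subunit and 5 of 62 of the large subunit. Their median log2 fold changes were close, 0.15 and 0.14, and the small-subunit peaks had the higher median level (111.6, against 70.7 normalized reads). After centring on promoter peaks 0 and 1 opened, and no difference between subunits was tested. The highest log2 fold change belonged to the Rpl38 peak at 313 bp (chr11:114668994-114669194), annotated as intronic; Rpl38 is known in mice for the translation of Hox mRNAs. This peak had 43.4, 36.7, 52.3 and 49.0 normalized reads in fasted mice, against 33.0, 31.6, 22.3 and 36.3 in fed mice, and the groups do not overlap by a narrow margin. Its log2 fold change was 0.54 ± 0.17 (SE, adjusted p = 0.0142 in limma), and the call was lost without fasted replicate 3 (0.47) or fed replicate 3 (0.40).

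Rpl37, a zinc-binding protein of the large subunit, gave the steadiest call at this time. Its peak at -201 bp (chr15:5116312-5116512) had 186.4, 183.6, 203.4 and 185.5 normalized reads in fasted mice, against 150.5, 155.1, 157.4 and 139.3 in fed mice, with every fasted mouse above every fed mouse. The log2 fold change was 0.33 ± 0.08 (SE, adjusted p = 0.00104 in limma), and it passed in every setting tried and with any 1 mouse left out. The other named peaks, with log2 fold changes of 0.39 for Rpl9, 0.33 for Rps12, 0.32 for Rpl7 at -285 bp and 0.31 for Rps27l, lost the call in 1 or more other settings. The count of 12 depended on single mice: it was 7 without fasted replicate 2, 6 without fasted replicate 4 or fed replicate 1, and 3 without fed replicate 3.

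After 16 h, 27 of 94 peaks (28.7%) opened and 0 closed (50 at an unadjusted p under 0.05), against 20.1% and 3.03% of other promoter peaks. The median log2 fold change was 0.25, against 0.16 for other promoter peaks, and 93 of 94 were above 0, against 77.7% of other promoter peaks. The opened peaks were 12 of 32 of the small and 15 of 62 of the large subunit, with median log2 fold changes of 0.25 and 0.26 over all peaks of each. Without fasted replicate 3 the count was 11, without fed replicate 1 it was 14 and without fed replicate 2 it was 17.

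The Rpl37 peak at -201 bp again separated the mice at 16 h, with 231.4, 244.1, 226.0 and 236.6 normalized reads in fasted mice, against 159.4, 148.5, 172.9 and 136.0 in fed mice. Its log2 fold change was 0.60 ± 0.08 (SE, adjusted p = 2.7e-07 in limma), the lowest adjusted p of any ribosomal protein peak in the tables. The Rps19 peak at -473 bp (chr7:24884019-24884219) lies upstream of the sequence shown above; Rps19 is the gene most often mutated in human Diamond-Blackfan anaemia. It had 190.0, 175.5, 165.1 and 171.1 normalized reads in fasted mice, against 128.7, 126.2, 124.8 and 120.1 in fed mice. The fed mice lay close together and all fasted mice stood above them (log2 fold change 0.48 ± 0.10 SE, adjusted p = 0.000257 in limma).

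The highest log2 fold change at 16 h came from a low peak, Rpl10a at -257 bp, whose product belongs to the stalk opposite the acidic proteins. It had 28.5, 29.1, 34.5 and 28.8 normalized reads in fasted mice, against 16.8, 15.3, 26.5 and 15.9 in fed mice. Replicate 3 stood highest in both groups, and the groups do not overlap (0.67 ± 0.20 SE, adjusted p = 0.01 in limma). Rpl21, a large-subunit protein, opened at 250 bp with 31.95, 32.2, 41.7 and 38.4 normalized reads in fasted mice, against 19.6, 20.9, 26.5 and 24.4 in fed mice (0.61 ± 0.17 SE, adjusted p = 0.00671 in limma). The Rpl37 and Rps19 peaks kept these calls in every setting tried and with any 1 mouse left out, and so did those of Rpl10a and Rpl21 wherever they were tested, since both drop out when a mean of 50 normalized reads is required. Those of Rpl41 at -262 bp (0.51) and Rpl38 at 313 bp (0.48) did not.

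After 24 h, 57 of 94 peaks (60.6%) opened and 0 closed (68 at an unadjusted p under 0.05), against 41.0% and 2.37% of other promoter peaks. All 94 log2 fold changes were above 0, against 86.5% of other promoter peaks, with a median of 0.34, against 0.26. With libraries centred on the other promoter peaks, 71 of 94 (75.5%) were above 0, against 55.3%. In 45 of the 94 peaks (47.9%) every fasted mouse stood above every fed mouse, against 37.9% of other promoter peaks. The opened peaks belonged to 47 of the 71 genes and were 18 of 32 of the small and 39 of 62 of the large subunit. The medians over all peaks of each subunit were 0.31 and 0.37. The count was 35 without fasted replicate 4 and 35 without fed replicate 2. The summed signal over the hepatocyte marker list took 0.296% to 0.325% of all signal in fasted mice at 24 h, against 0.259% to 0.274% in fed mice. Lymphocyte markers (1 of 9 with a peak) took 0.0140% to 0.0155% in fasted mice, against 0.0116% to 0.01396% in fed mice, and cholangiocyte markers (3 of 6) 0.01376% to 0.0141%, against 0.01411% to 0.0149%. The part of these in the counts was not tested. No ribosomal protein peak reached a 2-fold change at any time, and the largest was 1.59-fold.

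Rplp2 encodes an acidic stalk protein that recruits elongation factors. Its peak at -49 bp (chr7:141447502-141447702), which spans the TOP-like start printed above, had 60.6, 66.3, 59.7 and 67.1 normalized reads in fasted mice at 24 h, against 37.3, 39.8, 41.5 and 38.5 in fed mice. The groups are far apart (0.66 ± 0.13 SE, adjusted p = 0.000361 in limma). At 16 h the same peak had 60.4, 48.8, 65.7 and 57.6 in fasted mice, against 58.0, 53.7, 62.9 and 61.6 in fed mice, which overlap; the fed mice were lower at 24 h than at 16 h.

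Rpl27, a large-subunit protein also mutated in human Diamond-Blackfan anaemia, opened at both of its overlapping peaks. The peak at 104 bp (chr11:101442249-101442449) had 170.0, 187.7, 155.1 and 171.1 normalized reads in fasted mice at 24 h, against 109.5, 99.4, 123.8 and 129.5 in fed mice (0.56 ± 0.10 SE, adjusted p = 8.08e-05 in limma). Rpl13a, known in human cells for a second role as a translational silencer after interferon, had 130.1, 124.2, 125.2 and 129.3 normalized reads at -34 bp in fasted mice, against 82.6, 71.6, 102.7 and 93.6 in fed mice (0.54 ± 0.11 SE, adjusted p = 0.000379 in limma). The fasted mice of Rpl13a were close together and the fed mice spread more widely, with no overlap.

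Rpl23a, next to the exit of the peptide tunnel, had 85.3, 105.2, 97.3 and 110.5 normalized reads in fasted mice at 24 h, against 72.8, 46.1, 76.2 and 72.6 in fed mice (0.58 ± 0.13 SE, adjusted p = 0.00133 in limma). Fed replicate 2 stood well below the other fed mice. Rps21, a small-subunit protein, had 231.9, 245.5, 242.7 and 238.2 normalized reads at -23 bp in fasted mice, against 173.1, 163.1, 176.9 and 190.7 in fed mice, with the lowest adjusted p of the members at this time (0.44 ± 0.07 SE, adjusted p = 3.01e-05 in limma). The Rplp2, Rpl27 (104 bp), Rpl13a and Rpl23a peaks kept their calls in every setting tried and with any 1 mouse left out.

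**Figure D2:**
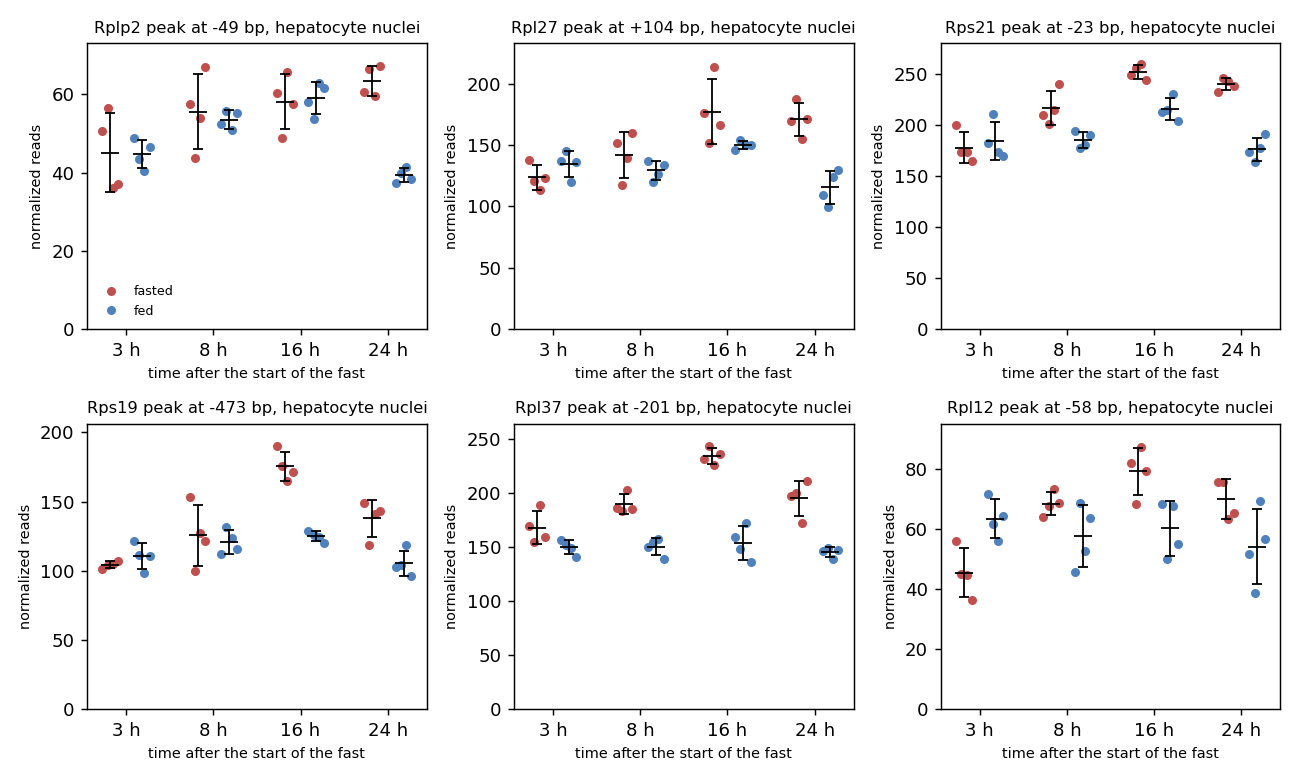
Normalized reads per mouse (y axis, from 0) at 6 ribosomal protein peaks of hepatocyte nuclei against the time after the start of the fast (x axis), fasted left of fed, with the mean and SD of 4 mice. Rplp2, Rpl27 and Rps21 are furthest apart at 24 h (Rplp2 59.7 to 67.1 in fasted against 37.3 to 41.5 in fed mice), Rps19 and Rpl37 at 16 h, and Rpl12 is lower in fasted mice at 3 h.

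The size of these counts depends on the level to which libraries are set, since the whole promoter class was shifted. With the deposited scaling the median log2 fold change over all peaks at 24 h was 0.16, and with libraries centred on the median of the other promoter peaks it was -0.08. Under that centring the median over the ribosomal protein peaks was -0.10 at 3 h, 0.00 at 8 h, 0.10 at 16 h and 0.11 at 24 h. The opened peaks were then 0, 1, 4 and 7 at the 4 times and the closed peaks 2, 3, 0 and 1. Of other promoter peaks 7.60%, 8.40%, 5.67% and 4.79% were opened and 7.03%, 10.03%, 6.82% and 6.13% closed, so that the opened share of ribosomal protein peaks at 16 h (4.26%) was below that of other promoter peaks and the one at 24 h (7.45%) above it. At 24 h the opened ones were those of Rpl13a (-34 bp), Rpl23a, both of Rpl27, Rplp2 (-49 bp), Rps19 (-125 bp) and Rps21 (-23 bp), and the closed one was that of the paralogue Rpl22l1, whose log2 fold change was 0.03 as deposited and -0.21 after centring. At 16 h they were those of Rpl10a (-257 bp), Rpl21 (250 bp), Rpl37 (-201 bp) and Rps19 (-473 bp). At 8 h Rpl37 (-201 bp) was opened, and the closed peaks included those of Rpl32 (-299 bp) and Rps13, neither of which passed as deposited. At 3 h Rpl12 and Rpl38 (7 bp) were closed.

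Centring on all peaks gave 3, 14 and 30 opened at 8, 16 and 24 h (3.19%, 14.9% and 31.9%), against 11.3%, 12.5% and 26.7% of other promoter peaks. With the reads recovered from the normalized values, edgeR called 4, 10 and 20 opened (13.1%, 10.01% and 16.7% of other promoter peaks) and DESeq2 called 3, 10 and 17, with 0 closed in both. In the authors' deposited table, 2 of the 94 peaks were opened at 8 h, 6 at 16 h and 28 at 24 h, against 13.5%, 10.5% and 24.0% of other promoter peaks. None of the up to 6 opened and 6 closed peaks named per comparison for the largest log2 fold change changed direction in a setting tried. The direction of the other called peaks across settings is not given here.

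**Figure D3:**
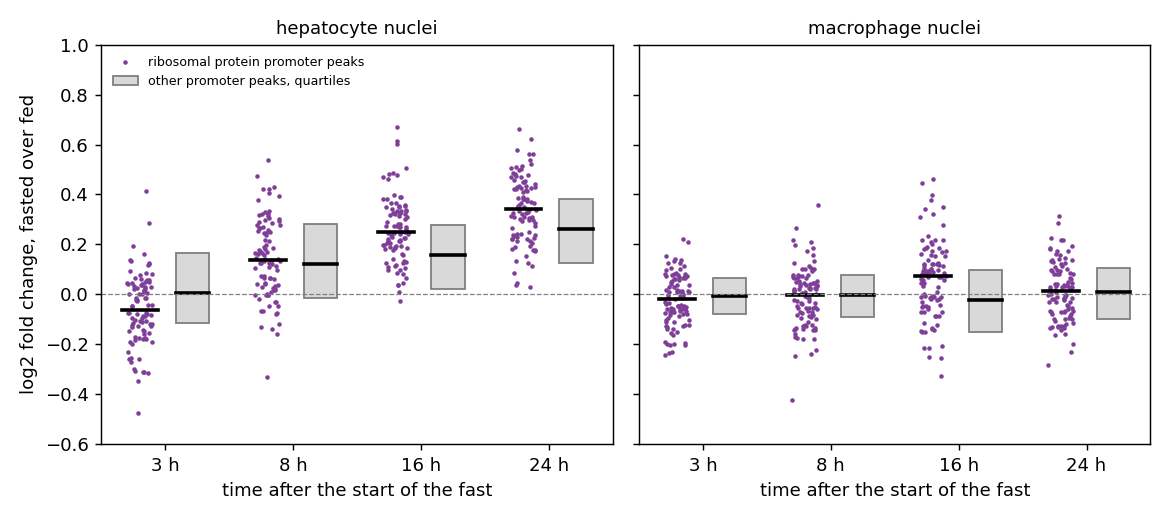
Log2 fold change of fasted over fed mice (y axis) at each time (x axis) for hepatocyte nuclei (left) and macrophage nuclei (right), as deposited. Points are ribosomal protein promoter peaks with their median as a bar, and boxes give the quartiles and median of other promoter peaks; the hepatocyte medians are -0.06, 0.14, 0.25 and 0.34 at 3, 8, 16 and 24 h, against 0.01, 0.12, 0.16 and 0.26 for other promoter peaks.

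**Figure D4:**
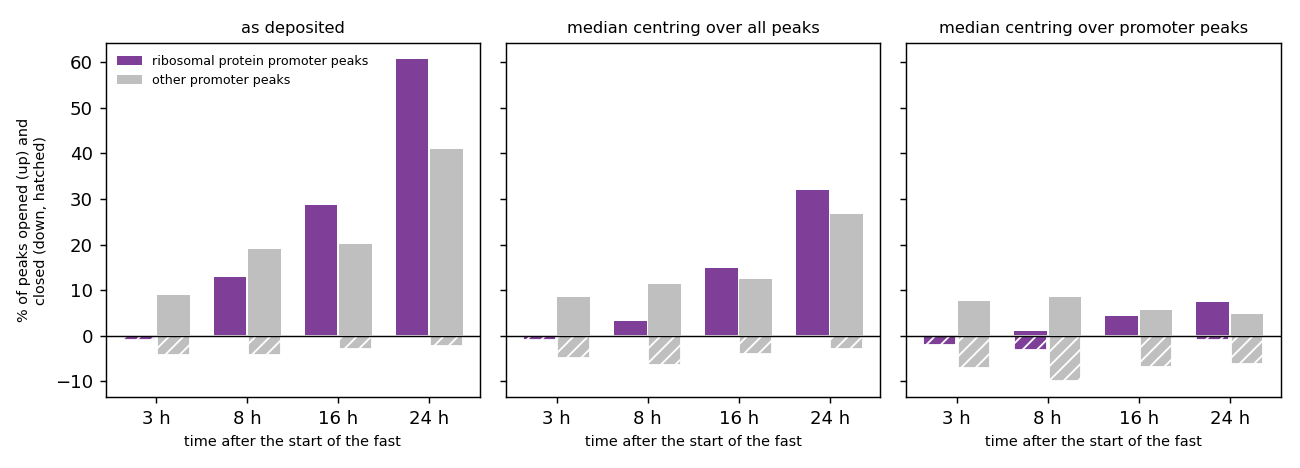
Share of peaks opened (upward bars) and closed (hatched, downward bars) in hepatocyte nuclei (y axis, percent) at each time (x axis) under 3 scalings, with ribosomal protein peaks left of other promoter peaks. As deposited, 60.6% of ribosomal protein peaks opened at 24 h against 41.0% of other promoter peaks, and after centring on promoter peaks 7 of 94 did.

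The size of the fasting effect was compared between times. A moderated F test found that the effect of fasting differed between times at 23 of 94 peaks, against 18.2% of other promoter peaks, and at 8 (8.51%) after centring on promoter peaks, against 10.5% of other promoter peaks. The smallest adjusted p belonged to Rpl13a at -34 bp (0.00407), whose log2 fold change was -0.19 at 3 h and 0.54 at 24 h. Rpl27 at 104 bp had -0.12 at 3 h and 0.56 at 24 h (adjusted p = 0.00475 in limma), and its overlapping peak at -21 bp had -0.18 and 0.48 (adjusted p = 0.00555 in limma). Rpl12 had -0.48 at 3 h, 0.25 at 8 h, 0.39 at 16 h and 0.38 at 24 h (adjusted p = 0.00505 in limma). Rps21 at -23 bp and Rps19 at -473 bp also passed, with adjusted p of 0.00609 and 0.00621 in limma, but Rps21 did not pass after centring on promoter peaks. The 3 h value lay below 0 in all 6 peaks, and of these only that of Rpl12 passed its own test.

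Opened peaks were shared in part between times. Of the 12 opened at 8 h, 8 were opened at 16 h (66.7% of the 12 and 29.6% of the 27 at 16 h) and 11 at 24 h (91.7% and 19.3%). Of the 27 at 16 h, 21 were opened at 24 h (77.8% and 36.8% of the 57). The 8 opened at 8, 16 and 24 h were Rpl37 (-201 bp), Rpl38 (313 bp), Rps10, Rps12, Rps16, Rps21 (-23 bp), Rps24 and Rps27l, of which Rps10, Rps12, Rps16, Rps21 and Rps24 encode small-subunit proteins. In all, 64 of 94 peaks opened at least once. With 60.6% of the members opened at 24 h, much overlap with that time is to be expected. The matching overlaps and share among other promoter peaks, of which 41.0% opened at 24 h, are not given here. The overlaps are therefore not read as a trait of these genes. The 30 never called include both peaks of Rpl32, Rpl30 and Rps14 and the peaks of Rps3, Rps7, Rps9, Rpl8, Rpl28, Rpl34, Rplp1 and Rps27a, which encodes ubiquitin fused to a ribosomal protein.

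The opened members were also counted by position and level, with no test of a difference. At 24 h, 45 of 71 peaks within 150 bp of the TSS and 12 of 23 farther out opened, with median log2 fold changes of 0.33 and 0.35. Of the 47 members with the higher mean level 35 opened, and of the 47 with the lower level 22 did, although the lower ones had the higher median (0.37, against 0.31). With 1 peak per gene, the one nearest the TSS, 45 of 71 opened. Of the 4 non-standard names 2 opened at 24 h, Rps27l (0.47) and Rps19bp1 (0.38).

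In fed mice alone, time of day changed 13 of 94 peaks in a moderated F test, against 16.3% of other promoter peaks, and all 13 were lowest at ZT12. Rpl11, which with Rpl5 can bind Mdm2, averaged 66.4 ± 3.7, 84.4 ± 2.3, 77.5 ± 11.8 and 60.1 ± 4.4 normalized reads at ZT15, ZT20, ZT4 and ZT12 (SD, n = 4 each; adjusted p = 0.0045 in limma). Rplp2 at -49 bp averaged 44.8 ± 3.6, 53.6 ± 2.4, 59.1 ± 4.1 and 39.3 ± 1.8 at the same times (SD, n = 4 each; adjusted p = 0.00828 in limma). Rpl29, Rps20, Rps21 (-23 bp) and Rpl22 followed, with adjusted p between 0.0119 and 0.0208 in limma. Centring on all peaks gave 3 such peaks of 94 (3.19%), against 10.4% of other promoter peaks. Centring on promoter peaks gave 1 of 94, that of Rpl11, against 8.35% of other promoter peaks. Under both centrings the share of ribosomal protein peaks was below that of other promoter peaks, and this difference was not tested.

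Some ribosomal protein genes are missing from the members because their start-site peak carries the name of a neighbour. Of 88 protein-coding genes in RefSeq whose symbols fit the naming rule, 71 had a member in hepatocyte nuclei. A further 10 had 1 or more peaks within 1000 bp of their RefSeq start under another name, 12 peaks in all, such as that of Rps2 under Snhg9, of Rps18 under Vps52 and of Rpl15 under Nkiras1. The other 7 had none, among them Rpl4 and the paralogues Rpl3l, Rpl10l and Rpl39l. These peaks were examined after the results for the members were known. At 24 h, 8 of the 12 opened, against 41.0% of other promoter peaks, and none of the 8 passed after centring on promoter peaks. As deposited they had log2 fold changes of 0.48 for Rps18, 0.33 for Rps2, 0.27 for Rpl15, 0.30 for Rpl36al, 0.36 for Rps28 and 0.46, 0.57 and 0.60 for the 3 peaks of Rps25. The start-site peak of Rps23rg1, a retrogene copy of Rps23, went the other way at all 4 times. It averaged 33.9 ± 3.0 normalized reads in fasted mice at 3 h, against 68.1 ± 5.1 in fed mice, and 37.1 ± 2.0 in fasted mice at 24 h, against 60.7 ± 10.4 in fed mice (SD, n = 4 each). Its log2 fold changes were -0.97, -1.07, -0.56 and -0.67 at 3, 8, 16 and 24 h, with adjusted p from 3.63e-06 to 0.00842 in limma, and it passed under promoter centring as well. The table gives this peak the name C330021F23Rik, so it cannot be assigned to 1 gene. With these peaks added, 65 of 106 opened at 24 h and 1 closed.

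Just inside the limit lay the hepatocyte peaks of Rpl13a at -862 bp, Rpl36 at -637 bp, Rpl7 at -592 bp and Rpl10 at -529 bp, with log2 fold changes at 16 h from 0.04 to 0.13 as deposited. After centring on promoter peaks those of Rpl10 and Rpl13a were below 0 (-0.11 and -0.07). Just outside it, the peak of Rpl36 at -1135 bp had 0.85 at 16 h and that of Rplp1 at -1248 bp had -1.35. A gene name farther out is that of the nearest TSS and need not be the gene a site acts on, and 60 such peaks in hepatocyte and 35 in macrophage nuclei were left out.

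Genes of related function were counted by the promoter peaks of fixed lists, each beside the same background of other promoter peaks. At 24 h in hepatocyte nuclei Rpsa, a small-subunit protein also known as the laminin receptor, opened. It averaged 144 ± 15.2 normalized reads in fasted mice, against 108 ± 5.2 in fed mice (SD, n = 4 each; log2 fold change 0.41). Elongation factors and other TOP mRNA genes had 15 of 27 opened, among them Tpt1 (0.39), Eef1g (0.52) and Pabpc1 (0.51), the poly(A) binding protein. Growth control genes had 30 of 58, with Eif4ebp3 (0.66), an inhibitor of cap-dependent translation, Sesn2 (0.69), an mTORC1 inhibitor, and Mnt (0.48), a Myc antagonist. Mitochondrial ribosomal protein genes had 40 of 81, ribosome biogenesis factors 24 of 74 and RNA polymerase I and III genes 11 of 49 with 1 closed, where Maf1 (0.51), a repressor of polymerase III, was among them. The background was 41.0%, so biogenesis factors (32.4%) and polymerase genes (22.4%) had smaller shares than other promoters, and no list was tested as a set. After centring on promoter peaks the opened peaks were 6 of 27 for elongation and TOP mRNA genes, 4 of 58 for growth control, 4 of 81 for mitochondrial ribosomal proteins, 0 of 74 for biogenesis and 4 of 49 for the polymerases, against 4.79% of other promoter peaks, and Rpsa did not pass.

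Single genes of these lists passed the test at 3 h, when 8.85% of other promoter peaks opened and 4.20% closed. Elongation and TOP mRNA genes had 1 opened and 1 closed of 27, and growth control genes 8 and 0 of 58. Biogenesis factors had 1 and 2 of 74, polymerase genes 4 and 4 of 49, and the list with Rpsa and Rack1 0 and 1 of 5. Eef2, the translocation factor of elongation, averaged 63.3 ± 5.9 normalized reads in fasted mice at 3 h, against 99.2 ± 7.7 in fed mice (SD, n = 4 each). This was a log2 fold change of -0.63 (closed). Rack1 at -37 bp closed by -0.49, while Eif4ebp1 (0.57) and Eif4ebp3 (0.56) opened. Eif6, which keeps the subunits apart, closed at -127 bp (-0.56) at 3 h and opened at that peak at 16 h (0.65). In the polymerase list Polr3e at 985 bp closed at 3, 8 and 16 h (-1.33, -1.09 and -0.59).

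In macrophage nuclei fewer ribosomal protein peaks than in hepatocyte nuclei were called with the deposited scaling, an order that does not hold at 16 h in other settings. At 3 h 0 of 99 opened and 0 closed in limma, 3 at an unadjusted p under 0.05, against 0.342% and 0.0926% of other promoter peaks, and edgeR and DESeq2 also gave 0. At 8 h 1 opened and 0 closed, against 1.42% and 1.29%. At 16 h 7 opened and 2 closed, against 5.11% and 8.18%. At 24 h 1 opened and 1 closed, against 2.98% and 3.13%. The median log2 fold changes were -0.02, -0.00, 0.07 and 0.01, against -0.01, -0.00, -0.02 and 0.01 for other promoter peaks, and 88 of 99 peaks were never called. The share of other promoter peaks never called is not given here. After centring on all peaks the medians were -0.04, 0.12, 0.21 and 0.11, so that at 8 h the sign turned. Whether the effect of fasting on a peak differed between hepatocyte and macrophage nuclei was not tested, since the tables were normalized separately.

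At 16 h the scaling decided the count in macrophage nuclei. The median over all macrophage peaks was -0.10 as deposited and 0.04 after centring on all peaks, under which 33 ribosomal protein peaks opened and 0 closed, against 18.3% of other promoter peaks opened. Centring on promoter peaks gave 13 opened and 0 closed, against 7.97% of other promoter peaks opened. edgeR gave 25 and 0, against 14.1%, and DESeq2 21 and 0. The hepatocyte counts at 16 h in the same 4 settings were 14, 4, 10 and 10, each below the macrophage count. At 24 h centring on all peaks gave 10 opened (10.1%) and 0 closed, against 9.74% of other promoter peaks opened and 1.33% closed. edgeR and DESeq2 each gave 6 and 0, and in edgeR 7.61% of other promoter peaks opened. The 16 h fasted group holds the library with the fewest reads, replicate 4 with 1729720 reads in peaks. Its ribosomal protein peaks took 0.820% of the promoter signal, against 0.760% to 0.780% in the other fasted mice and 0.735% to 0.779% in fed mice. As deposited, 4 peaks opened without it. The count was also 4 without fed replicate 2 and 3 without fed replicate 3, and of the closed peaks 1 was left without fasted replicate 1 or 4 or any 1 fed mouse, while 4 closed without fasted replicate 3. The summed signal over the macrophage marker list took 0.178% to 0.219% of all signal in these fasted mice, against 0.211% to 0.227% in fed mice. Endothelial marker peaks summed to 225 normalized reads in fasted replicate 1, against 410 to 434 in the other fasted mice and 431 to 460 in fed mice. The part of these in the result was not tested.

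Rpl10, an X-linked gene for the protein that joins the large subunit late in its assembly, gave the steadiest call in macrophage nuclei. At -122 bp (chrX:74270594-74270794) it had 130.7, 139.1, 129.2 and 135.2 normalized reads in fasted mice at 16 h, against 105.2, 113.6, 94.7 and 105.1 in fed mice, without overlap (0.35 ± 0.10 SE, adjusted p = 0.00827 in limma), and the call held in every setting tried and with any 1 mouse left out. Rpl38 at 313 bp had 63.4, 60.2, 54.8 and 57.9 in fasted mice, against 49.5, 41.0, 36.8 and 42.8 in fed mice (0.46 ± 0.14 SE, adjusted p = 0.0127 in limma). This call was lost without fed replicate 3 (0.40).

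Rps9, a small-subunit protein that guards decoding accuracy in yeast, opened at 2 times. At 16 h it had 131.5, 137.0, 150.5 and 178.2 normalized reads in fasted mice, against 126.8, 110.7, 118.9 and 117.3 in fed mice (0.32 ± 0.09 SE, adjusted p = 0.0106 in limma). At 24 h it had 138.7, 143.7, 149.96 and 158.2 in fasted mice, against 118.0, 138.2, 104.1 and 114.5 in fed mice (0.32 ± 0.09 SE, adjusted p = 0.0192 in limma). The groups do not overlap at either time, with a narrow gap at 24 h. The 16 h call was lost without fasted replicate 4 (0.23), and the 24 h call without fasted replicate 4 (0.28) or fed replicate 3 (0.26).

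Rpl10a at -257 bp (0.40), Rpl26 at -21 bp (0.34), Rps12 (0.28) and Rplp0 (0.22) also opened at 16 h, and the groups overlap in each. Rpl30 at -22 bp closed, with 140.8, 154.2, 163.5 and 170.8 normalized reads in fasted mice, against 181.7, 181.0, 176.8 and 210.2 in fed mice (-0.25 ± 0.08 SE, adjusted p = 0.0165 in limma). Rpl28 closed as well (-0.25), and neither call was left after centring on promoter peaks (-0.21 for both). At 8 h the paralogue Rpl7l1 had 70.2, 73.8, 69.9 and 77.0 normalized reads in fasted mice, against 55.0, 59.0, 57.5 and 54.0 in fed mice (0.36 ± 0.11 SE, adjusted p = 0.0472 in limma). The groups are well apart, yet the call was lost with any 1 mouse but fasted replicate 1 left out. At 24 h the paralogue Rpl22l1 closed, with 225.4, 220.9, 220.2 and 236.9 in fasted mice, against 256.7, 257.9, 272.2 and 249.9 in fed mice (-0.20 ± 0.06 SE, adjusted p = 0.0316 in limma). The count of closed peaks at 24 h was 0 without fasted replicate 1, 2 or 3 or fed replicate 1 or 2, and that of opened peaks was 2 without fasted replicate 1 or 3 and 0 without fasted replicate 4. Hepatocyte markers (2 of 14 with a peak) took 0.00382% to 0.00485% of all signal in fasted mice at 24 h, against 0.00572% to 0.00751% in fed mice. Cholangiocyte markers (2 of 6) took 0.00244% to 0.00307%, against 0.00309% to 0.00401%. At 8 h monocyte and neutrophil markers (5 of 7) took 0.0278% to 0.0311% in fasted mice, against 0.0262% to 0.0275% in fed mice. Stellate cell markers (1 of 9) took 0.00271% to 0.00344%, against 0.00367% to 0.00415%. The part of these markers in the calls was not tested.

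Neither the fasting effect between times nor the time of day in fed mice passed at any ribosomal protein peak of macrophage nuclei in limma, with 12 and 5 at an unadjusted p under 0.05. Of other promoter peaks 1.63% and 1.08% passed. Centring on all peaks gave 5 for the difference between times (5.05%), against 2.33% of other promoter peaks. Centring on promoter peaks gave 1 (1.01%), against 1.54% of other promoter peaks. Of the peaks under a neighbour's name, that of Rps28 opened at 16 h (0.34), which with the members makes 8 opened and 2 closed of 109. Of the related lists at 16 h, where 5.11% of other promoter peaks opened and 8.18% closed, 4 of 27 elongation and TOP mRNA peaks opened and 2 closed, and 7 of 73 mitochondrial ribosomal protein peaks opened and 3 closed. At 24 h Fau, a ubiquitin-like protein fused to a ribosomal protein, opened (0.23).

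Both tables share 91 of the ribosomal protein peaks, 3 are only in the hepatocyte table and 8 only in the macrophage table, where Rpl36al is the 1 gene without a hepatocyte member. Over the 91 peaks the log2 levels in hepatocyte and macrophage nuclei had a Pearson correlation of 0.97. Peaks are not independent replicates, and all share the same libraries, so the correlations here are descriptions. The log2 fold changes had a correlation of 0.14 at 3 h, 0.19 at 8 h, 0.52 at 16 h and 0.32 at 24 h. At 16 h Rpl10a (-257 bp), Rpl38 (313 bp) and Rps12 (-103 bp) opened in both tables, which is 11.1% of the 27 in hepatocyte and 42.9% of the 7 in macrophage nuclei. The matching overlap among other promoter peaks is not given here.

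**Figure D5:**
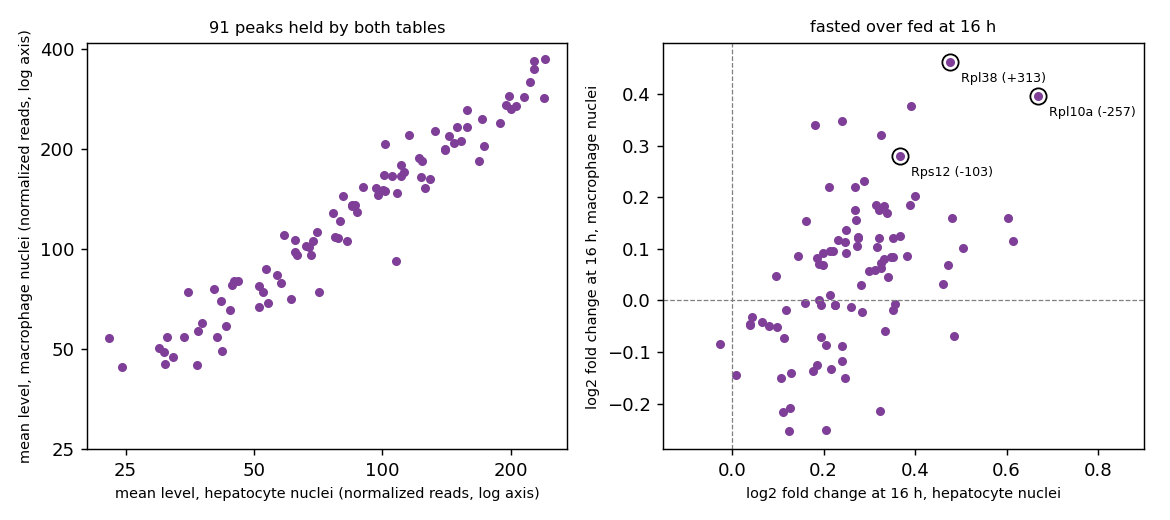
The 91 ribosomal protein peaks held by both tables: mean level in macrophage nuclei (y axis) against hepatocyte nuclei (x axis) in normalized reads on log axes (left), and log2 fold change of fasted over fed mice at 16 h in macrophage nuclei (y axis) against hepatocyte nuclei (x axis, right). Each point is a peak, and circles mark the 3 that opened in both tables; levels follow each other closely (Pearson 0.97) and fold changes less so (0.52).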

How the data were processed

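Accessible chromatin was measured by paired-end ATAC-seq on bead-bound nuclei, with technical duplicates of macrophage samples, per the labels' protocols. The deposited signal values are normalized reads per peak in 1 column per mouse, and each column holds whole multiples of 1 step. The submitters' processing notes name HOMER, DESeq2, SAMtools, BWA 0.7.5a-r405 and the build mm10, with no role or order. The authors' deposited table also gives log2 fold changes and an adjusted p-value for each comparison.

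Values were tested with limma 3.58.1 in R 4.3.3 on log2(value + 2), with 8 group means per cell type, a mean-variance trend and a mean of at least 10 normalized reads (5 hepatocyte peaks removed, none of them a member). Adjustment was by Benjamini-Hochberg over all peaks of a comparison at 0.05. Alternatives were 2 median centrings, an offset of 8, other filters, a 500 bp limit, library sets as a block, each mouse left out, and edgeR 4.0.16 and DESeq2 1.42.0 on whole reads recovered from the values (100% whole within 0.01 read). Files were normalized apart for each cell type, so each was tested alone. Whether the 4 mice of a group are littermates is not given in the sources used here. The procedure was tested on simulated hepatocyte data in which only 200 of 46733 peaks changed at 24 h, some up and some down. There 7.46% of 1.25-fold, 40.3% of 1.5-fold and 83.3% of 2-fold changes were recovered. In the real data limma called 17182 peaks at 24 h and promoters were shifted as a class. The simulated shares therefore need not hold for the real test.

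Named peaks were, per comparison, up to 6 opened and 6 closed members of largest log2 fold change, those of smallest p in the F tests, the highest and lowest levels, and members next to the distance limit. The members and lists were chosen with earlier results of these data known. Some members and list genes are not reported here by name.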

Additional observations from a re-analysis of the deposited data

Results flagged for a closer look

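In 7 of 108 groups of 4 mice 1 value stood apart from the other three by Dixon's criterion, and chance gives about 1 in 20. The summed signal of the ribosomal protein peaks in hepatocyte nuclei was 10160 in 1 fed mouse at 16 h, against 8953 to 9129 in the others. In macrophage nuclei these peaks took 0.761% of the promoter signal in 1 fasted mouse at 24 h, against 0.746% to 0.748%. In hepatocyte nuclei the Rpl37 peak at -201 bp had 203.4 normalized reads in 1 fasted mouse at 8 h, against 183.6 to 186.4. Rpl10a at -257 bp had 34.5 in 1 fasted mouse at 16 h, against 28.5 to 29.1, and 26.5 in 1 fed mouse, against 15.3 to 16.8. Rpl23a had 46.1 in 1 fed mouse at 24 h, against 72.6 to 76.2. In macrophage nuclei Rpl30 at -22 bp had 210.2 in 1 fed mouse at 16 h, against 176.8 to 181.7.

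The effect of fasting differed between times in hepatocyte nuclei by the moderated F test in limma at Rpl13a (-34 bp, adjusted p = 0.00407, log2 fold changes from -0.19 to 0.54), Rpl27 (104 bp, adjusted p = 0.00475, -0.12 to 0.56), Rpl12 (-58 bp, adjusted p = 0.00505, -0.48 to 0.39), Rpl27 (-21 bp, adjusted p = 0.00555, -0.18 to 0.48), Rps21 (-23 bp, adjusted p = 0.00609, -0.05 to 0.44) and Rps19 (-473 bp, adjusted p = 0.00621, -0.08 to 0.48).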

How the results depend on the processing

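Of the up to 6 opened and 6 closed peaks named per comparison for the largest log2 fold change, none changed direction in any setting tried. The macrophage median at 8 h, -0.00 as deposited, was 0.12 after centring on all peaks, 0.08 in edgeR and 0.08 in DESeq2, and that at 24 h, 0.01, was -0.00 without fed replicate 3. Over the peaks named for the largest log2 fold change, 221 of the values under other settings stayed past the threshold and 41 did not. With 1 mouse left out 174 stayed and 66 did not. In hepatocyte nuclei, centring on all peaks gave 3, 14 and 30 opened at 8, 16 and 24 h, and 3 peaks that changed with time of day in fed mice. Centring on promoter peaks gave 2 closed at 3 h, 1 opened and 3 closed at 8 h, 4 opened at 16 h, 7 opened and 1 closed at 24 h, 8 peaks differing between times and 1 by time of day. edgeR gave 4, 10 and 20 opened at 8, 16 and 24 h and DESeq2 3, 10 and 17. Adding the peaks under a neighbour's name, chosen after seeing the data, gave 3, 1, 1 and 1 closed at the 4 times. In macrophage nuclei, centring on all peaks gave 2, 33 and 10 opened and 0 closed at 8, 16 and 24 h. Of other promoter peaks 4.55%, 18.3% and 9.74% opened at these times. The same centring gave 5 peaks differing between times, against 2.33% of other promoter peaks. Centring on promoter peaks gave 13 opened and 0 closed at 16 h and 1 peak differing between times. edgeR gave 3, 25 and 6 opened and 0 closed at 8, 16 and 24 h, and DESeq2 2, 21 and 6 opened and 0 closed. In edgeR 5.32%, 14.1% and 7.61% of other promoter peaks opened. A mean of at least 50 normalized reads gave 0 opened at 8 h and 4 at 16 h, an offset of 8 gave 2 opened at 24 h, and library sets as a block gave 3 there. The cause was not tested.

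With 1 mouse left out, hepatocyte counts ranged from 0 to 2 closed at 3 h, 3 to 17 opened at 8 h, 11 to 39 at 16 h and 35 to 53 at 24 h. Macrophage counts ranged from 0 to 1 opened at 8 h, 3 to 10 opened and 1 to 4 closed at 16 h, and 0 to 2 opened and 0 to 1 closed at 24 h. The labels give no replicate numbers, so mice were not paired one by one. The sets of library numbers, fitted as a block, gave 13, 27 and 57 opened in hepatocyte nuclei at 8, 16 and 24 h, and 8 opened and 3 closed in macrophage nuclei at 16 h. Depth of 1729720 reads in the shallowest library limits the low peaks.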
